A study of Mus musculus with 6 samples.

Results

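Il10 and 5 genes of transcription factors that control it in T cells, Prdm1, Maf, Nfil3, Bhlhe40 and Ahr, were followed in regulatory T (Treg) cells of the pancreas and the spleen. The 6 members form a pathway chosen by name, with earlier results of these data known. Each was matched to the probe set annotated to that gene and no other, which gave 6 of the 19752 genes measured. Each member had 1 probe set. The samples were 3 arrays of pancreatic Treg cells and 3 arrays of splenic Treg cells from female mice aged 10 weeks that were not yet diabetic. Their strain is NOD.Foxp3-ires-gfp, on a background that the labels give as NOD NRB_SFB+. In these mice green fluorescent protein is made from the Foxp3 transcript, and cells were sorted as DAPI- CD45+ TCRb+ CD4+ GFP+, so that the gate selects cells by current Foxp3 transcription. No allele other than the reporter, and no treatment, is given for either tissue, and the NOD strain develops autoimmune diabetes spontaneously. The labels do not say whether an array holds cells of 1 animal or a pool, and the spread that the p-values measure, that between arrays, may be technical.

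Interleukin 10 (IL-10) is a secreted cytokine that restrains inflammation by acting on myeloid cells and on T cells through a receptor that signals by JAK1, TYK2 and STAT3. Foxp3+ cells are among its sources at mucosal and inflamed sites, and mice whose Treg cells cannot make it develop inflammation of the colon. Blimp-1, the product of Prdm1, marks effector Treg cells and is needed for their Il10 expression. c-Maf, the product of Maf, binds and activates the Il10 gene in several T cell types, NFIL3 promotes IL-10 production by T helper cells, and AHR, a receptor for small aromatic ligands, works with c-Maf in type 1 regulatory cells. BHLHE40 differs from the other 4 in that it represses Il10 in mouse T helper cells.

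The genes that define the sorted cells were high in both tissues. Foxp3, the gene behind the gate, averaged 11.48 ± 0.16 on the log2 intensity scale in pancreas and 11.52 ± 0.32 in spleen (SD, n = 3 each), and Cd4 and Ptprc, the gene of CD45, had log2 fold changes of -0.09 and -0.21. None of these 3 passed the test. The median intensity of the arrays ran from 82.0 to 92.0, and the interquartile range of the log2 values, here called the width of an array, ran from 2.23 to 3.07. A background level was set at an intensity of 63.9, the 95th percentile of olfactory and vomeronasal receptor genes. With 3 arrays a tissue, precision is limited by that number. An intensity depends on the probes of a gene, so levels are compared between tissues and not between genes.

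All 6 members had a higher level in pancreatic than in splenic Treg cells, and for all 6 the arrays of the 2 tissues did not overlap. The log2 fold changes ran from 0.78 for Ahr to 3.44 for Il10, with a median of 1.22 against 0.00 over all genes tested. The differences of 3 members, Il10, Prdm1 and Bhlhe40, passed limma's test at an adjusted p under 0.05, and those of Nfil3, Ahr and Maf did not. Of all genes, 0.678% passed this test in either direction and 0.547% passed as higher in pancreas. Pancreas arrays lay wholly above spleen arrays for 4.57% of all genes. A fitted value at least 2-fold higher in pancreas was found for 4 of the 6 members and for 0.82% of all genes. Because the members were chosen with earlier results of these data known, their counts beside these shares are descriptions. In RNA of a sorted population, a larger share of cells that express a gene and more RNA per expressing cell cannot be told apart.

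**Figure D1:**
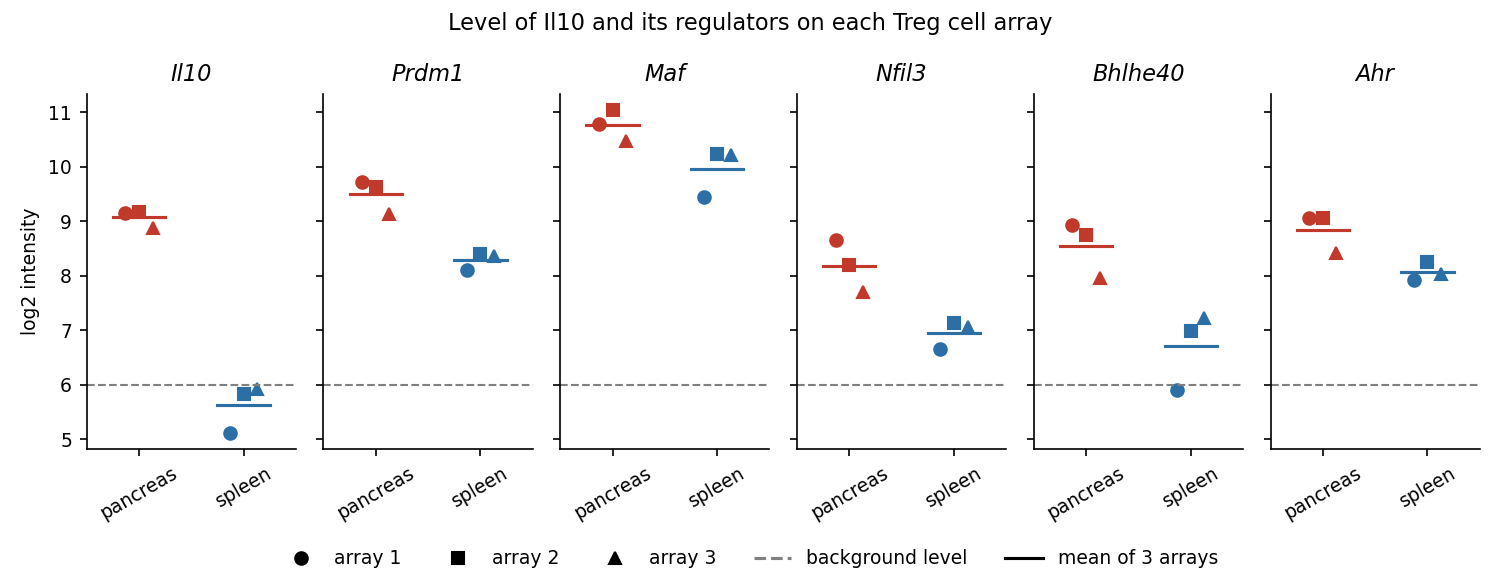
Log2 intensity of the 6 genes on each array, with pancreatic Treg cells left (red) and splenic Treg cells right (blue) in every panel; symbols give the array number, bars the mean of 3 arrays and the dashed line the background level. Pancreas lies above spleen in every panel, and the only points under the background level are the 3 spleen arrays of Il10 and spleen array 1 of Bhlhe40.

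Il10 had the largest difference of the 6. Its intensity was 573, 577 and 470 on pancreas arrays 1 to 3, against 34.6, 57.2 and 60.8 on spleen arrays 1 to 3. The pancreas values lay close together, within 0.30 on the log2 scale, whereas every spleen value was under the background level and their spread of 0.82 is therefore not a spread of measured Il10. The lowest pancreas array stood 2.95 above the highest spleen array on the log2 scale. Set against the background level, the pancreas mean of Il10 was 8.41-fold higher, a lower bound given without an interval. In the limma fit with values raised to that level its adjusted p was 0.0212. All 3 spleen values are then equal, so that p takes no spread from the spleen arrays and does not measure the spread between arrays. The log2 fold change of 3.44 fitted to the deposited values (adjusted p = 7.72e-05) uses the spleen values under background and is not a measured size. The call of Il10 held in all 16 alternative fits, with an adjusted p of at most 0.0212.

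Prdm1, the gene of the repressor Blimp-1, was at an intensity of 844, 797 and 562 on the pancreas arrays, in order of their number, and at 277, 337 and 328 on the spleen arrays. Every value was well over the background level in both tissues, so unlike Il10 it was measured in splenic Treg cells too. It was 2.31-fold higher in pancreas (95% interval 1.71 to 3.12, adjusted p = 0.0215). The call rests on the full set of arrays: it held in 1 of 6 fits with 1 array left out, that without pancreas array 3 (adjusted p = 0.000763), and ended in the other 5, with an adjusted p of up to 0.118 without pancreas array 2. Centring every array on its own median ended it too (adjusted p = 0.114), while the log2 fold change stayed between 1.10 and 1.39 in all 16 alternatives.

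Bhlhe40, which encodes a basic helix-loop-helix repressor induced by T cell receptor signals, had the second largest difference of the 6. Its intensity was 488, 433 and 248 on pancreas arrays 1 to 3, against 60.2, 127 and 150 on spleen arrays 1 to 3. Spleen array 1 was under the background level and the other 2 spleen arrays were above it. The fitted difference was 3.58-fold (95% interval 2.11 to 6.06, adjusted p = 0.0473). With spleen array 1 raised to the background level the estimate was 3.51-fold. In the limma fit with values raised to that level, the adjusted p of Bhlhe40 was 0.600. Its values were the most spread of the 6 in both tissues, with SDs of 0.52 in pancreas and 0.70 in spleen on the log2 scale. The call held in 2 of 6 fits with 1 array left out, those without pancreas array 3 and without spleen array 3, and ended in the other 4, with an adjusted p of up to 0.183 without pancreas array 2.

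Nfil3, the gene of a basic leucine zipper factor that also takes part in circadian control, was at an intensity of 402, 292 and 208 on the pancreas arrays, against 101, 140 and 133 on the spleen arrays. The lowest pancreas array was 0.57 above the highest spleen array on the log2 scale. The difference of 2.35-fold (95% interval 1.62 to 3.41) was as large as that of Prdm1, but with a larger standard error, 0.24 against 0.20, it came to an adjusted p of 0.0548. Among the 16 alternatives, 6 brought it past the threshold, among them quantile normalization (adjusted p = 0.0177) and a fit to genes above background only (adjusted p = 0.0241).

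Ahr and Maf differed least. Ahr had intensities of 531, 534 and 344 on pancreas arrays 1 to 3, against 241, 304 and 262 on spleen arrays 1 to 3, a 1.72-fold difference (95% interval 1.25 to 2.36, adjusted p = 0.180). The gap between the tissues was 0.18 on the log2 scale, between pancreas array 3 and spleen array 2. Maf was at an intensity of 1774, 2119 and 1430 on the pancreas arrays, against 699, 1205 and 1188 on the spleen arrays, a 1.75-fold difference (95% interval 1.21 to 2.53, adjusted p = 0.284). Both intervals, which are not adjusted over genes, leave out a fold of 1, as did those of 1351 of the 19752 genes, or 6.84%. The value of Maf depends on spleen array 1, since its log2 fold change was 0.55 without that array and 0.81 with it.

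On 1 array of each tissue all 6 genes were low. On pancreas array 3 all 6 were under their pancreas mean, by 0.19 to 0.59 on the log2 scale, and on spleen array 1 all 6 were under their spleen mean, by 0.15 to 0.80. Those are the narrowest arrays of each tissue, with interquartile ranges of 2.23 and 2.49, against 2.72 to 3.07 on the other arrays. Pancreas array 3 and spleen array 1 were both the lowest of their tissue for 39.1% of the 11698 genes above background. After quantile normalization this held for 4 of the 6 genes and 24.1% of all, with 5 of the 6 lowest on pancreas array 3 and 5 on spleen array 1. After scaling the arrays to one interquartile range it held for 2 of the 6 genes and 21.8% of all, with 3 lowest on pancreas array 3 and 5 on spleen array 1. The part of array width in the shared low values was not tested.

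**Figure D2:**
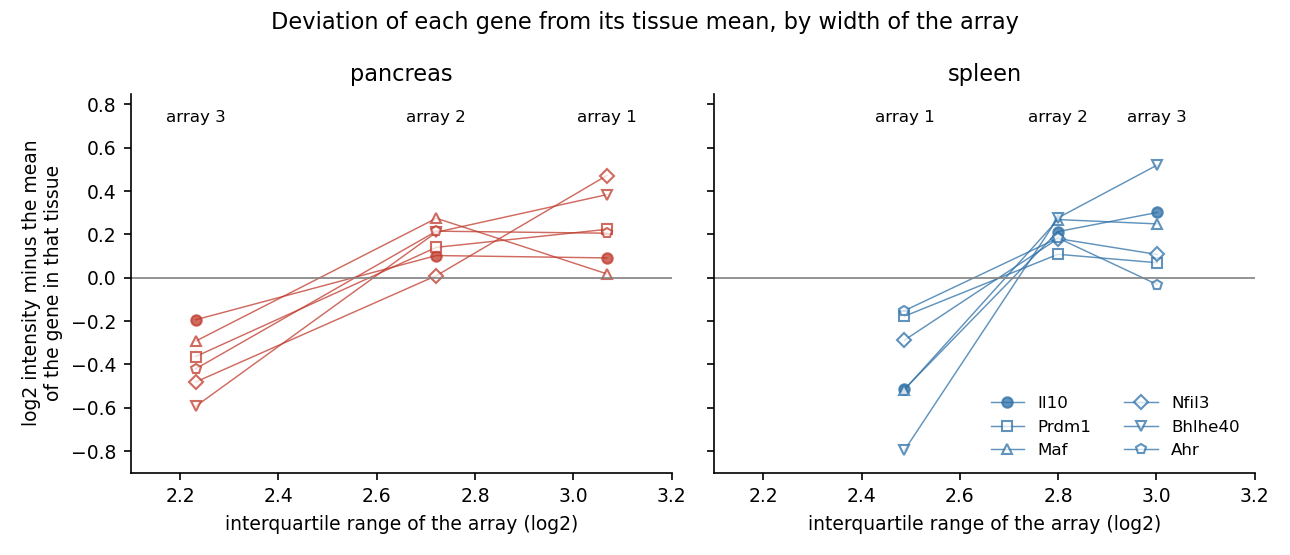
Log2 intensity of each of the 6 genes minus its mean over the 3 arrays of the same tissue, against the interquartile range of the array, for pancreas (left, red) and spleen (right, blue); lines join the 3 arrays of a gene, and Il10 is filled. All 6 genes are lowest on the narrowest array of each tissue, pancreas array 3 and spleen array 1.

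The genes whose profiles over the 6 arrays came nearest to each member were listed by the root-mean-square difference of profiles centred on each gene's own mean. Candidates were 11144 genes above background in pancreas. Predicted and clone names, antigen receptor and immunoglobulin segments, and olfactory and vomeronasal receptors were left out of them. This measure mostly reflects a difference between tissues of like size, the arrays share their width, and spleen values under background enter it as they stand, so the order is a description only. For Il10 the 5 nearest began with Try10, a trypsin gene (0.29), Lilr4b, a leukocyte immunoglobulin-like receptor gene (0.39), and Ccl3, a chemokine gene (0.39). Next were Rnase1, the gene of pancreatic ribonuclease (0.46), and Jchain, which encodes the joining chain of secreted IgM and IgA (0.48). Of these 5, Lilr4b and Jchain had 0 of 3 spleen arrays above background, Try10 and Ccl3 had 1 and Rnase1 had 3, and with Il10 itself at 0 the spleen part of its distances is not one of measured levels. No other member was as near to Il10, the nearest being Bhlhe40 at 0.84. For Prdm1 they were Pole (0.10), Mcm6 (0.11) and Cdca5 (0.12), a DNA polymerase, a replicative helicase subunit and a cohesion factor of dividing cells. For Nfil3 they were Tnfaip3, which encodes the NF-kB inhibitor A20 (0.12), the phosphatase gene Dusp4 (0.13) and Prdm1 itself (0.14). For Bhlhe40 they were Jun (0.25), the co-inhibitory receptor gene Lag3 (0.31) and the chemokine receptor gene Ccr8 (0.32). For Ahr they were Ran, a nuclear transport GTPase gene (0.06), Elovl6, a fatty acid elongase gene (0.08) and Mcm5, another helicase subunit gene (0.09). For Maf they were Acot7, an acyl-CoA thioesterase gene (0.08), the metalloproteinase gene Mmp9 (0.10) and Ccrl2, a chemerin-binding receptor gene (0.10).

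Prdm1 and Nfil3 were the closest pair among the members, and their promoters are shown because these 2 are the members with an entry in the RefSeq promoter table of GRCm38.p6. Both lie on the minus strand, that of Prdm1 at chr10:44458699-44458998 and that of Nfil3 at chr13:52980990-52981289, and each window runs from 250 bases before to 50 bases after the gene's start, printed 5′ to 3′. Capitals mark matches on either strand to the core sites of AHR (GCGTG), BHLHE40 (CACGTG), NFIL3 (TTANGTAA), c-Maf (TGCTGA) and Blimp-1 (GNGAAAG), and to the AP-1 site (TGANTCA) bound by pairs of Fos and Jun proteins.
Prdm1: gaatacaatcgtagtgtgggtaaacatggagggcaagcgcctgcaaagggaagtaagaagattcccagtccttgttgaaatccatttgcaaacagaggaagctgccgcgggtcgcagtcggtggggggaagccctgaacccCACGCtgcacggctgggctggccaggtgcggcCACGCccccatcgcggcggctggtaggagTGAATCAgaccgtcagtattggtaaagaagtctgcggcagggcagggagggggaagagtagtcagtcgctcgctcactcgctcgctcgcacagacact
Nfil3: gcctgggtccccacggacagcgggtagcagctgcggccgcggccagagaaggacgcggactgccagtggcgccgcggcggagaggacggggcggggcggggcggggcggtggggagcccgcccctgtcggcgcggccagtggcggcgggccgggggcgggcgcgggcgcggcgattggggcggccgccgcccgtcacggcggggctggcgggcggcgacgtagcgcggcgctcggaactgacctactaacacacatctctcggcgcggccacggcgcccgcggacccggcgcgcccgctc
The Prdm1 window held 1 AP-1 match, beginning 48 bases before the start, and 2 matches to the AHR core, both on the reverse strand, and none overlapped another. The Nfil3 window held no match to any of the 6 letter strings, and 81.7% of its bases were G or C, against 59.7% of the Prdm1 window. Of the 32851 promoters in the table, 7.81% held the AP-1 string and 32.4% the AHR core string. The matches are descriptions of the letters in these windows.

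None of the genes beside the members passed the test. For each member the 3 nearest measured protein-coding genes on either side were taken, in the gene order of GRCm38.p6, a choice made after the members' values were known. Of these 36 neighbours, 0 passed the test (limma), where 0.678% of all genes did. At an unadjusted p under 0.05, found for 6.84% of all genes, there was 1 higher in pancreas and 1 lower. The higher was Syk beside Nfil3 (log2 fold change 0.64, adjusted p = 0.469) and the lower Tspan13 beside Ahr (-0.48, adjusted p = 0.610). Over 36 genes these counts lie near the shares of all genes and are no result about the neighbours. On one side of Il10 lie Il19, Il20 and Il24, cytokine genes of the same family, and all 3 were under the background level in both tissues, with mean log2 intensities of 5.63, 4.90 and 5.02 in pancreas. On the other side Mapkapk2, which encodes a kinase that stabilises cytokine mRNA, had a log2 fold change of 0.51 (adjusted p = 0.788) with overlapping arrays. Over all 36 neighbours the log2 fold changes ran from -0.48 to 0.64, each smaller than that of the lowest member, Ahr, at 0.78, and 21 of the 36 were above background in a tissue.

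**Figure D3:**
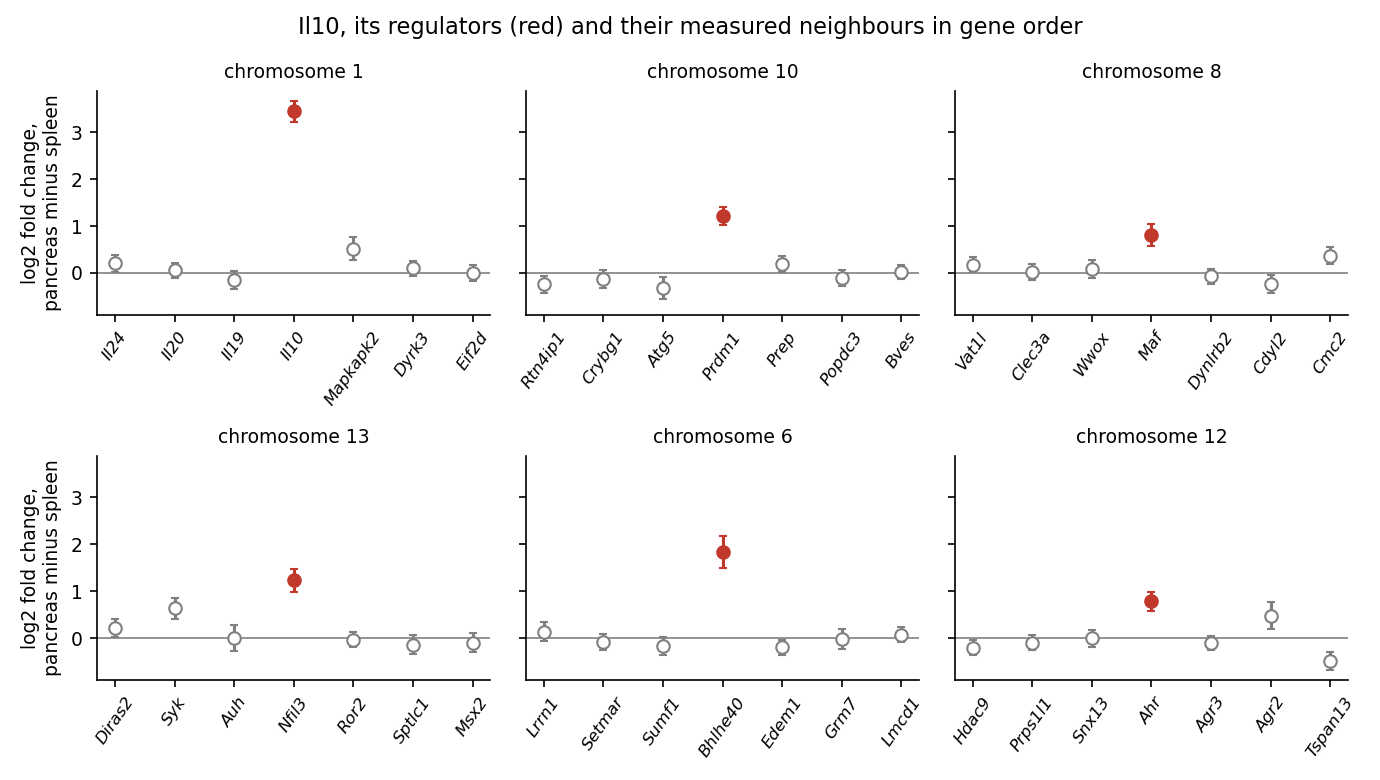
Log2 fold change, pancreas minus spleen, with its standard error, of each member (red) and of the 3 nearest measured protein-coding genes on either side (open), placed by gene order and not by distance. Each member stands above all of its neighbours, whose values lie between -0.48 and 0.64.

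Lists of other genes of the pathway were described by the same fit. They held 113 genes besides the members, of which 100 were measured, and 5 of these (5%) rose in pancreas and 0 fell (limma), where 0.678% of all genes changed. The lists were drawn up with results of these data known, so these counts are descriptions. An unadjusted p under 0.05 was found for 6.84% of all genes. At a share of 0.678% a short list would mostly hold 0 genes past the test, so a count of 0 is no result about a list. Among 28 measured transcription factors reported to activate Il10, 3 rose and 0 fell, and the median log2 fold change was 0.11. The 3 were Fos and Jun, the partners in AP-1, and Tbx21, the gene of the T helper 1 factor T-bet. Fos had log2 intensities of 8.46, 8.29 and 7.81 in pancreas, against 5.94, 6.19 and 6.26 in spleen, where 2 of 3 arrays were above background (log2 fold change 2.06, adjusted p = 0.00127). Jun rose by 1.94 (adjusted p = 0.0207) and Tbx21 by 1.44 (adjusted p = 0.0324), and Fos still passed whichever of the 6 arrays was dropped. That of Jun ended without pancreas array 1 (adjusted p = 0.0865) and without pancreas array 2 (adjusted p = 0.0665). That of Tbx21 held without pancreas array 3 and without spleen array 3 and ended in the other 4 fits, with an adjusted p of up to 0.105 without pancreas array 2. Junb, another AP-1 subunit gene, was at 1.23 (adjusted p = 0.193). Irf4, whose product drives effector Treg differentiation, was at 0.61 (adjusted p = 0.646), and its arrays overlapped between the tissues.

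Apart from the member Bhlhe40, a repressor that passed the test, genes reported to restrain Il10 showed no call. The receptors whose signals induce it showed none either. Of 6 repressors besides Bhlhe40, 0 passed in either direction (limma), with 1 higher and 1 lower at an unadjusted p under 0.05. Bach2, a repressor gene that holds back effector differentiation, had log2 intensities of 8.67, 8.36 and 7.83 in pancreas, against 9.06, 9.43 and 9.44 in spleen, a log2 fold change of -1.02 (adjusted p = 0.0951). Zfp36, which encodes the mRNA-destabilising protein tristetraprolin, was at 0.39 (adjusted p = 0.640). Of 14 inducing receptors, 0 passed, with 2 higher and 2 lower at an unadjusted p under 0.05. Both genes of the interleukin 6 receptor, Il6ra (-0.87, adjusted p = 0.178) and Il6st (-0.53, adjusted p = 0.608), had non-overlapping arrays with pancreas below spleen, as did 5.81% of all genes. Ifngr1, a chain of the interferon gamma receptor, was at 0.41 (adjusted p = 0.614).

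The genes through which IL-10 acts were present in both tissues without a call. The 8 measured genes of the receptor and its signalling were above background in both tissues, with 0 past the test (limma), 1 higher and 0 lower at an unadjusted p under 0.05 and a median log2 fold change of 0.07. Il10ra, the ligand-binding chain, averaged 9.39 ± 0.28 in pancreas and 9.02 ± 0.29 in spleen (SD, n = 3 each, adjusted p = 0.937). Bcl3, a nuclear NF-kB regulator induced by IL-10, was at 0.75 (adjusted p = 0.493) and the kinase gene Jak1 at -0.28 (adjusted p = 0.988). Of the 4 measured relatives of IL-10, 3 were under the background level on every array, and Ifnl2, the gene of an interferon lambda, was at -0.11 (adjusted p = 1.00).

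Among genes that the regulators are known to control, those of co-inhibitory receptors had the highest median log2 fold change, 0.66. The list of co-inhibitory receptors driven by c-Maf and Blimp-1 in T cells held 6 genes, of which 2 rose and 0 fell. All 6 had a higher mean in pancreas, as did 9837 of the 19752 genes tested. Of these 6, Procr was under the background level on every array. Lag3 had log2 intensities of 8.95, 9.24 and 8.49 in pancreas, against 6.56, 6.76 and 7.53 in spleen (log2 fold change 1.94, adjusted p = 0.00959), and its call ended in 1 of 6 fits with 1 array left out, that without pancreas array 1 (adjusted p = 0.0594). Tigit averaged 11.87 ± 0.06 in pancreas and 10.99 ± 0.19 in spleen (SD, n = 3 each, adjusted p = 0.0473), and its call held in 1 of those 6 fits, that without pancreas array 3, with an adjusted p of up to 0.208 without pancreas array 2 among the others. Havcr2, the gene of TIM-3 and a target of NFIL3, was at 1.05 (adjusted p = 0.0667), Pdcd1, the gene of PD-1, at 0.44 (adjusted p = 0.910) and Pdpn at 0.06 (adjusted p = 1.00). Of 5 other measured targets of c-Maf, 0 passed the test (limma), with 1 higher and 0 lower at an unadjusted p under 0.05, among them Icos (0.38, adjusted p = 0.667), Il23r (0.31, adjusted p = 0.861) and Cxcr5 (0.38, adjusted p = 0.991).

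The list of genes reported to be repressed by Blimp-1 had the lowest median of the pathway lists. Of 10 measured, 1 rose and 0 fell, and at an unadjusted p under 0.05 there were 1 higher and 4 lower, with a median log2 fold change of -0.24. The gene that rose was Fos, an immediate-early gene. Id3, which encodes an inhibitor of E proteins, averaged 6.66 ± 0.15 in pancreas and 7.56 ± 0.37 in spleen (SD, n = 3 each, adjusted p = 0.105). Ccr7, the lymph node homing receptor, was at -0.78 (adjusted p = 0.123), and neither these 2 nor Bach2 had overlapping arrays.

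No partner or target of AHR passed the test. Of 8 measured, 0 passed the test (limma) and 0 had an unadjusted p under 0.05, with a median log2 fold change of 0.01. The AHR targets Cyp1a1, Cyp1b1, Nqo1 and Ahrr were under the background level on every array of both tissues. Tiparp, a further AHR target, averaged 7.93 ± 0.52 in pancreas and 7.85 ± 0.12 in spleen (SD, n = 3 each, adjusted p = 1.00). Arnt, the dimerisation partner, was at -0.18 (adjusted p = 1.00), and Gpr15, a colon homing receptor gene, at 0.03 (adjusted p = 1.00).

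No relative of the regulators passed the test. Of 9 measured relatives, 0 passed the test (limma), 0 had an unadjusted p under 0.05 and the log2 fold changes ran from -0.41 to 0.21. Bhlhe41, the closest relative of Bhlhe40, was under the background level on every array, as was Maff, whereas Tef (-0.28, adjusted p = 0.991) and Dbp (-0.41, adjusted p = 1.00), circadian activators that bind the same DNA sites as NFIL3, were measured in both tissues. Nfil3 and Bhlhe40 also belong to the circadian clock network, and of 11 measured clock genes 0 passed the test (limma), with 1 higher and 0 lower at an unadjusted p under 0.05. Rora was at 0.43 (adjusted p = 0.677), Per2 at -0.26 (adjusted p = 0.977) and Nr1d2 at -0.26 (adjusted p = 0.993).

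**Figure D4:**
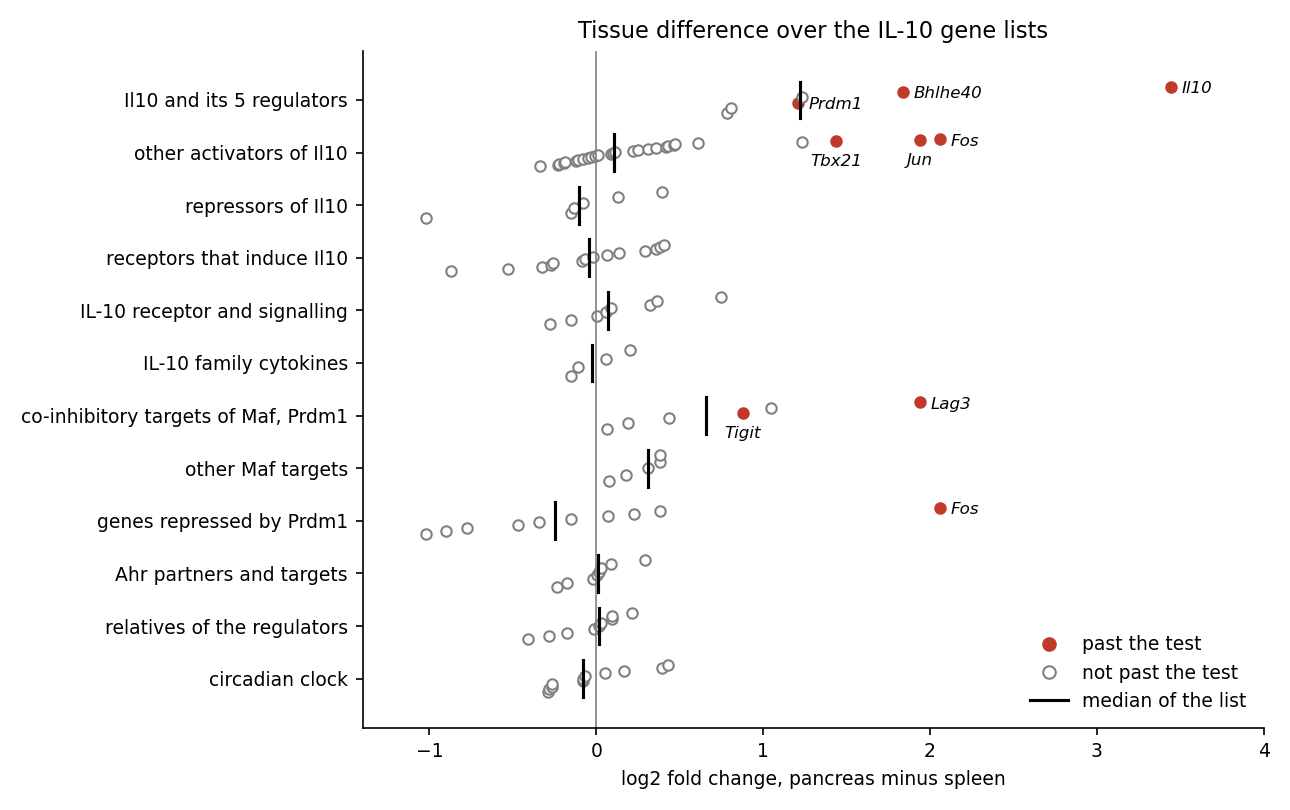
Log2 fold change, pancreas minus spleen, of every measured gene on the lists of the IL-10 pathway; filled points passed limma's test at an adjusted p under 0.05 and black bars are list medians. The median of the 6 members, 1.22, lies right of the medians of the other lists drawn, and Fos, Jun, Tbx21, Lag3 and Tigit are the other genes past the test.

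Markers of other cells differed from list to list. The median log2 fold change was 3.42 for acinar markers, 0.68 for B cell markers and 0.49 for markers of CD8 T and NK cells. It was 0.20 for plasma cell markers and 0.12 for islet markers. For endothelial, mast cell, and macrophage and dendritic cell markers it was 0.04, 0.03 and 0.02. Under the background level on every array were all 5 mast cell markers, 4 of 6 markers of CD8 T and NK cells and 3 of 5 endothelial markers. The same held for 8 of 13 macrophage and dendritic cell markers, 2 of 6 islet markers and 1 of 5 plasma cell markers. Medians of such lists partly or wholly describe background signal. Of 7 measured B cell markers, 1 passed the test, all 7 had a higher mean in pancreas, and their summed intensity was 825 to 1809 in pancreas and 569 to 711 in spleen. Ms4a1 (log2 fold change 2.08, adjusted p = 0.0678) and Cd79a (1.86, adjusted p = 0.0482) led that list. Ms4a1 was above background on 0 of 3 spleen arrays and Cd79a on 1, so these are not measured sizes. Against the background level they were 1.53 and 1.54 higher on the log2 scale. The call of Cd79a held without pancreas array 2 and without pancreas array 3 and ended when any of the other 4 arrays was dropped, with an adjusted p of up to 0.142 without spleen array 3. Of 5 plasma cell markers 1 passed, Jchain, at 8.27 ± 0.76 in pancreas and 4.95 ± 0.12 in spleen (SD, n = 3 each, adjusted p = 0.000975), with Mzb1 at 0.48. Jchain was above background on 0 of 3 spleen arrays, and against that level it was 2.27 higher on the log2 scale. The sum was 1367 to 1880 in pancreas and 994 to 1501 in spleen. Most of that sum was Xbp1 (log2 fold change 0.11), at 989 to 1270 in pancreas and 788 to 1330 in spleen. B cells, plasma cells and macrophages can express Il10 and Prdm1.

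Of 13 macrophage and dendritic cell markers 1 passed, Lyz2 (1.90, adjusted p = 0.00134), with Cd209a at 1.41. The sum of the list was 984 to 1168 in pancreas and 718 to 803 in spleen. Lyz2 was above background on 2 of 3 spleen arrays and Cd209a on 1, and against that level they were 1.80 and 1.19 higher. On that list 8 markers, among them Cd14 and Itgax, were under the background level on every array. Of 10 acinar markers 9 passed, led by Ctrb1 and Clps (log2 fold changes 4.57 and 4.37), with sums of 12436 to 25569 in pancreas and 951 to 2458 in spleen. Of 6 markers of CD8 T and NK cells 1 passed, Klrd1 (0.98, adjusted p = 0.0397), which like Ncr1 (0.86) was under the background level on every array, and the sum was 465 to 580 in pancreas and 439 to 487 in spleen. The call of Klrd1 held without pancreas array 3 and without spleen array 1 and ended when any of the other 4 was dropped, with an adjusted p of up to 0.218 without spleen array 2. Of 5 mast cell markers, 5 endothelial markers and 6 islet markers, 0 passed (limma), with 0 higher at an unadjusted p under 0.05 and 1 lower, the endothelial marker Pecam1 (-0.81, adjusted p = 0.112), which T cells also express. The mast cell sum, all of it background signal, was 110 to 139 in pancreas and 109 to 133 in spleen. The islet sum was 395 to 571 in pancreas and 419 to 503 in spleen. The endothelial sum was 673 to 803 in pancreas and 1030 to 1090 in spleen. Most of it was Pecam1, at 362 to 559 in pancreas and 732 to 829 in spleen. Kit and Cma1 of the mast cell list, Egfl7 of the endothelial list and Ins2 and Ppy of the islet list had log2 fold changes between -0.18 and 0.21. The part of other cells in the difference of Il10, Prdm1 and Bhlhe40 was not tested. With the 57 measured marker genes of other cells left out of the fit, Bhlhe40 came to an adjusted p of 0.0512 at the same log2 fold change. Leaving these genes out takes no RNA of other cells from the arrays, so this fit does not address their part.

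**Figure D5:**
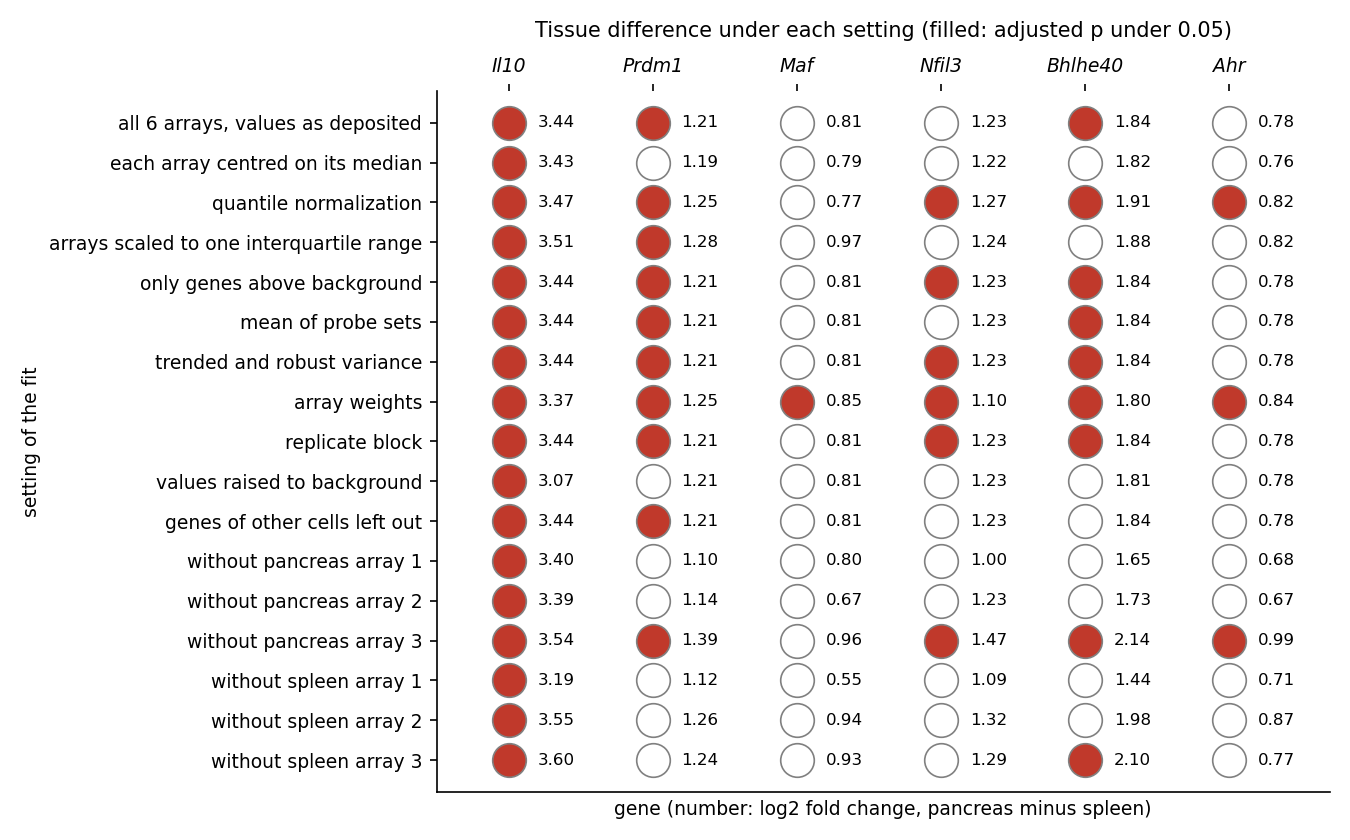
Log2 fold change, pancreas minus spleen, of the 6 genes (columns) in the fit to the deposited values and in 16 alternative fits (lines); filled circles passed at an adjusted p under 0.05. Il10 is filled throughout, Prdm1 and Bhlhe40 in 9 and 8 of the 16 alternatives, Nfil3, Ahr and Maf in 6, 3 and 1.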

How the data were processed

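Total RNA of the sorted cells went through the Ambion WT Expression Kit before hybridisation to Mouse Gene 1.0 ST arrays of Affymetrix, per the labels' protocols. The deposited table holds linear intensity values per probe set, for which the submitters' processing notes name RMA and Affymetrix Power Tools; versions are not given in the sources used here. Medians differ between arrays, so how far arrays were normalised together is unknown. The log2 of each value was used, with no filter.

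Of 24922 probe sets, 21425 name 1 gene, 21347 of them with a gene ID in the RefSeq table of GRCm38.p6. The probe set with the highest mean stood for a gene with several. Tissues, taken from the titles, were compared with limma 3.58.1 (R 4.3.3; lmFit, eBayes, no covariates, two-sided, 4 residual and 6.58 prior degrees of freedom), with Benjamini-Hochberg adjustment over all genes. The fit was tested on simulated data. Members, lists and tests were chosen with earlier results of these data known. Named were all members and, per pathway list, genes past the test and up to 3 further above background; per list of other cells, the 2 largest differences; and the 5 (Il10) or 3 nearest profiles. The AHR targets, Bhlhe41, Maff, Cd14, Itgax and the neighbours were named after their values were seen. Figures were drawn with matplotlib 3.10.9.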

Additional observations from a re-analysis of the deposited data

How the results depend on the processing

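All 6 genes kept a higher level in pancreas in each of the 16 alternative fits, and the call of Il10 held in all 16. The direction could not change with 1 array left out, since the arrays of the tissues did not overlap for any member. Nor could the log2 fold change move with genes above background only, the mean of probe sets, a trended and robust variance, or the replicate block. The same holds with marker genes of other cells left out. Of the 6 genes, 3 passed in the fit to the deposited values. With every array centred on its own median, 1 passed (Prdm1 at 1.19 and Bhlhe40 at 1.82 no longer did), with 38 genes in all and 1 on the pathway lists, against 134 and 5 as deposited. Quantile normalization gave 5 (Nfil3 at 1.27 and Ahr at 0.82 joined), 203 and 8, of which 3 of the 8 were lower in pancreas. Scaling to one interquartile range gave 71 and 2, with Bhlhe40 at 1.88 not past the test. These 3 settings put the median of all genes between -0.0259 and -0.0180. Values raised to the background level left 1 member, 3 genes and 0 on the pathway lists (limma), with Prdm1 at 1.21 and Bhlhe40 at 1.81 not past the test; the prior degrees of freedom then fell to 0.353. Nfil3, at an unchanged 1.23, passed with genes above background only, with a trended and robust variance and with the replicate block. Bhlhe40, at an unchanged 1.84, did not pass without the marker genes of other cells. Array weights gave 6 members, 7206 genes and 56 on the pathway lists, with Maf at 0.85, Nfil3 at 1.10 and Ahr at 0.84 past the test, but their estimation stopped before it converged and put weights of 9.50 and 5.69 on pancreas and spleen arrays 2 and 0.236 to 0.650 on the other 4, so this fit rests on 1 array of each tissue. The cause of the other changes was not tested.

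The labels do not say that array numbers pair the tissues. The deviations of same-numbered arrays from their tissue means correlated at -0.18, 0.05 and -0.63 over 11698 genes, and no array correlated best with that of its own number. With the replicate block 4 members and 132 genes passed. With 1 array left out, the log2 fold changes ran from 1.10 to 1.39 for Prdm1, 1.00 to 1.47 for Nfil3, 1.44 to 2.14 for Bhlhe40, 0.67 to 0.99 for Ahr, 0.55 to 0.96 for Maf and 3.19 to 3.60 for Il10. The members past the test ran from 1 to 5, with 5 without pancreas array 3, 2 without spleen array 3 and 1 without any of the other 4, all genes between 64 (spleen array 1 left out) and 262 (pancreas array 3 left out), and the pathway lists between 1 (pancreas array 1 left out) and 7 (pancreas array 3 left out). Il10 was under background on every spleen array, so its fitted values are not measured sizes, and the bound against background is 3.07 on the log2 scale.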
